A study of Mus musculus with 4 samples.

Results

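The genes described here encode the proteases and the reductase that cut and unfold protein inside lysosomes, together with the main proteins of the lysosomal membrane. They were chosen by name: the cathepsins *Ctss*, *Ctsl*, *Ctsb*, *Ctsh*, *Ctsz* and *Ctsd*, the asparaginyl endopeptidase *Lgmn*, the thiol reductase *Ifi30*, and the membrane glycoproteins *Lamp1* and *Lamp2*. These are 10 of the 23361 genes in the deposited table, and all 10 were among the 10080 genes that passed the filter on low values. Their transcripts were measured by RNA-seq in early T lineage progenitors (ETP), the most immature progenitors of the thymus, sorted as Lin- CD44+ CD25- CD117+ cells. The samples were 2 libraries of old ETP, from female C57BL6 mice aged 72 weeks, and 2 libraries of young ETP, from female C57BL6 mice aged 4 to 6 weeks. The deposited table names the old group by an age in months that is above 72 weeks, and the labels' age is used here. No gene was altered and no agent was given in either group. The labels do not say whether animals were pooled or whether the libraries of one age came from separate animals, so each p-value speaks only of the spread among these 4 libraries, which may be technical.

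Lysosomal proteases are made as inactive precursors, are switched on at acid pH, and break down protein taken up from outside or delivered from within the cell. In dendritic cells, macrophages and B cells the same enzymes prepare antigen for MHC class II: they degrade the invariant chain that blocks the class II groove and cut antigen into peptides that fit it. Cathepsin S makes the last cut in the invariant chain in those cells, whereas cathepsin L does so in the epithelium of the thymic cortex. Many lysosomal genes carry an E-box, CACGTG, within a longer element named CLEAR, which is bound by the transcription factor TFEB.

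The promoters of the members were searched for this element and for motifs of interferon-responsive and myeloid genes. Of the 10 genes, 8 were found in the RefSeq promoter table (GRCm38.p6, from 250 bases before to 50 bases after the start of the gene), and *Ctsb* and *Ctsh* were not matched. CACGTG, which reads the same on both strands, was present for 5 of these 8 genes, against 7.15% of all 32851 promoters of this length and 12.6% of the 7619 tested genes with a promoter in the table. *Lamp1* held 4 copies within 70 bases just before its start, and 6 of 27025 genes in the table (0.0222%) held that many. One site of each of the 5 genes is shown, or all 4 for *Lamp1*, and then the *Ctss* promoter, which held no CACGTG but a pair of GAAA runs with 2 bases between them, as found in interferon-responsive genes. Each is written 5′ to 3′ on the strand of its gene, with the matched letters in capitals.
Lamp1, chr8:13159091-13159160, plus strand: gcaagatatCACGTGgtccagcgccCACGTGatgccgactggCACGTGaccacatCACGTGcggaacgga
Ctsd, chr7:142387908-142387937, minus strand: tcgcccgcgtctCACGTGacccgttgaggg
Ifi30, chr8:70766842-70766871, minus strand: atccaaaaacttCACGTGaccagacatgct
Lgmn, chr12:102439124-102439153, minus strand: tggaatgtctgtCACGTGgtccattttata
Ctsl, chr13:64370739-64370768, minus strand: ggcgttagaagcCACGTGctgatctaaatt
Ctss, chr3:95526753-95526786, plus strand: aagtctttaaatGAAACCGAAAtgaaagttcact

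In *Ctsd* and *Ifi30* the E-box stood inside the longer palindrome TCACGTGA, which overlaps it and was found in 0.974% of all promoters. That pair of GAAA runs, searched on both strands, matched *Ctss* and *Lamp1* (2 of 8 genes, against 3.44% of all promoters). GAGGAA, the core letters bound by the myeloid factor PU.1, matched *Ctss*, *Ifi30* and *Lamp2* on either strand (3 of 8, against 28.3% of all promoters), and TTCNNNGAA, the letters bound by STAT factors, matched none of the 8 (8.30% of all promoters). A match is a run of letters and was not tested as a binding site. The 5 genes with CACGTG lay at both ends of the age comparison given below: the log2 difference, old minus young, was 3.32 for *Ifi30*, 0.81 for *Lgmn*, -0.10 for *Lamp1*, -0.34 for *Ctsd* and -0.51 for *Ctsl*. The 3 matched genes without it likewise included higher and lower estimates, 1.61 for *Ctss*, 1.35 for *Ctsz* and -0.28 for *Lamp2*.

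The genes are spread over 9 chromosomes, and only *Ifi30* and *Lamp1* share one, far apart on chromosome 8 (GRCm38, GENCODE M21: 70762774-70766663 and 13159161-13175338). *Ctss* lies at chr3:95526786-95556403, *Ctsh* at chr9:90054152-90076089, *Ctsz* at chr2:174427493-174439039 and *Ctsb* at chr14:63122462-63145923. *Ctsd* lies at chr7:142375911-142388038, *Ctsl* at chr13:64359337-64370890, *Lgmn* at chr12:102394084-102439813 and *Lamp2* at chrX:38401357-38456454. Exons of *Ctsb* share 774 bases with *Fdft1* on the opposite strand, those of *Ctsl* share 1742 bases with an antisense gene and 395 bases with a pseudogene, and those of *Ctsd* share 808 bases with a second gene model on the same strand. The sources used here do not state if strand was used in counting, so part of the fragments of these 3 genes could belong to the overlapping gene. *Fdft1* itself had 30.6 and 35.0 CPM in old ETP, against 35.8 and 39.8 CPM in young ETP, a narrow range beside that of *Ctsb*. The shared exonic stretches of *Lamp1* with *Grtp1* (249 bases), *Ifi30* with 6330537M06Rik (85 bases) and *Ctsz* with *Nelfcd* (10 bases) were shorter.

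Depth differed within each age: the deposited counts summed to 11816478 and 4839341 fragments in old replicates 1 and 2, against 16658864 and 6414915 fragments in young replicates 1 and 2. Levels are given as CPM, the estimated fragments of a gene scaled by edgeR to a common total of tested fragments with TMM factors, and 3 fragments correspond to between 0.176 and 0.654 CPM, so no member was near the limit of detection in any library. Old minus young differences are log2 values from edgeR's quasi-likelihood test, with p-values adjusted over all 10080 genes. All 12 genes listed as ETP markers, among them *Kit* and *Notch1*, passed the filter. Their summed level was 4207 and 3609 CPM in old ETP, against 4360 and 4833 CPM in young ETP. The list also holds *Il2ra*, which encodes CD25, a protein that the sort selected against, so not every gene in it marks ETP. Of these 12 markers 8 had a lower estimate in old ETP (median -0.23), with 963 and 577 CPM of *Notch1* in old ETP, against 1273 and 1204 CPM in young ETP, and 507 and 287 CPM of *Cd34* in old ETP, against 625 and 561 CPM in young ETP. In bulk RNA, more cells of one type and more RNA per cell cannot be told apart.

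Of the enzymes, *Ctsh* and *Ifi30* were present at several times their young level in both old libraries, *Ctss* and *Ctsz* were higher by a smaller factor, and *Ctsd*, *Ctsl* and both membrane proteins were not higher in old ETP. In mean CPM, old ETP held 12.7 times as much *Ctsh*, 9.96 times as much *Ifi30*, 3.05 times as much *Ctss* and 2.56 times as much *Ctsz*. None of the 10 passed an adjusted p of 0.05 in edgeR, and nor did any other gene (0% of 10080 called, lowest adjusted p 0.325). By unadjusted edgeR p, 4 members were under 0.05 with a higher level in old ETP, a direction in which 4.65% of all tested genes passed, and 0 with a lower level, where 0.913% did (561 genes in either direction, 5.57%). DESeq2, run on the same counts, called 2 members higher (*Ctsh* and *Ifi30*), against 2.08% of all tested genes, and 0 lower, against 0.149% (225 genes in either direction, 2.23%). The levels of 5 members in both old libraries lay above those in both young libraries, as for 16.1% of tested genes, and 1 member lay below in the same way, as for 15.5% (31.6% in either direction). Estimates were higher in old ETP for 6 members and lower for 4, beside 46.6% and 53.4% of all tested genes. The median difference over the 10 members was 0.77 on the log2 scale, beside -0.033 over all tested genes. These values changed with the old library used: with old replicate 2 alone, edgeR called 3 members higher (*Ctsh*, *Ifi30* and *Ctss*) among 218 genes, and with old replicate 1 alone it called 0 and the median difference of the members was 0.25. In both fits the spread came only from the young pair, and the lone old library was assumed to vary like it, so these calls are no test of age.

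**Figure D1:**
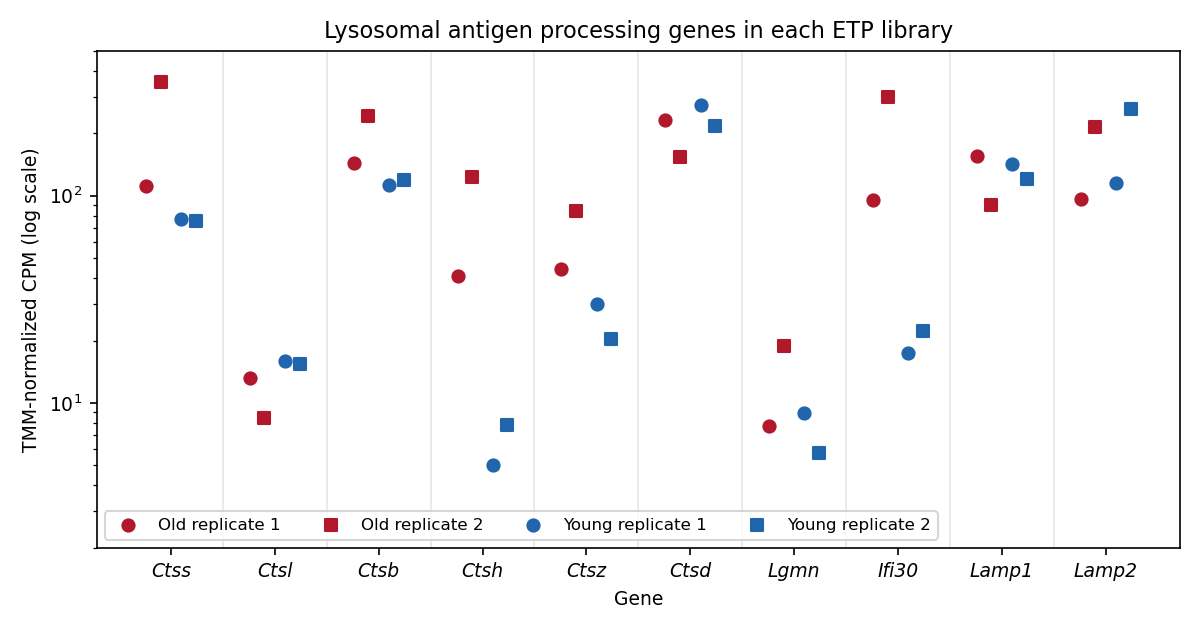
Level of each of the 10 genes in each library, in TMM-normalized CPM on a log axis, with old libraries in red to the left of young libraries in blue and circles and squares for replicates 1 and 2. *Ctsh* and *Ifi30* show the widest gaps between ages, from 41.1 CPM in the lower old library against 7.85 CPM in the higher young library for *Ctsh*, and old replicate 2 is the highest of the 4 libraries for *Ctss*, *Ctsb*, *Ctsh*, *Ctsz*, *Lgmn* and *Ifi30*.

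The first group are the endopeptidases that cut the invariant chain. *Ctss*, which encodes cathepsin S, had 1332 and 1625 fragments in old replicates 1 and 2, which is 111 and 354 CPM, against 1315 and 470 fragments, or 76.9 and 75.3 CPM, in young replicates 1 and 2. Both old libraries were above both young ones, but the old libraries differed 3.20-fold from each other whereas the young ones were nearly equal. The difference was 1.61 (SE 0.56, 95% interval 0.21 to 3.01, edgeR adjusted p = 0.788). Without old replicate 2 it was 0.51, so the size of the *Ctss* difference rested largely on that library. *Ctsl*, which encodes cathepsin L, was expressed at a much lower level and in the other order, with 13.2 and 8.50 CPM in old ETP, against 15.9 and 15.4 CPM in young ETP. It was the only member with both old libraries below both young ones, at a difference of -0.51 (SE 0.39, edgeR adjusted p = 0.999), and old replicate 2 held only 39 of its fragments.

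The second group are the cathepsins that trim peptides from their ends, the exopeptidases. *Ctsh*, an aminopeptidase, had 494 and 565 fragments in old ETP, or 41.1 and 123 CPM, against 86 and 49 fragments, or 5.03 and 7.85 CPM, in young ETP. The lower old library was thus above the higher young library by several fold, and each old library held more *Ctsh* fragments than the deepest library of the series, young replicate 1. Its difference of 3.68 (SE 0.63, 95% interval 2.1 to 5.27) was the largest of the 10 and ranked 36th of 10080 genes by p (edgeR adjusted p = 0.347), and DESeq2 gave an adjusted p of 5.15e-07. Without old replicate 2 it was still 2.67.

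*Ctsz*, a carboxypeptidase also named cathepsin X, had 44.4 and 84.3 CPM in old ETP, against 29.9 and 20.3 CPM in young ETP. The groups did not overlap, and the difference was 1.35 (SE 0.42, 95% interval 0.30 to 2.39, edgeR adjusted p = 0.667). *Ctsb*, which encodes cathepsin B and works as both an endopeptidase and a carboxypeptidase, had 143 and 242 CPM in old ETP, against 112 and 119 CPM in young ETP. Its old libraries were also both higher, but by a narrow margin in old replicate 1, and the interval of its difference reached below 0 (0.74, SE 0.33, 95% interval -0.098 to 1.57, edgeR adjusted p = 0.999). The same order of the 3 exopeptidases, *Ctsh* before *Ctsz* before *Ctsb*, was seen without old replicate 2, at 2.67, 0.78 and 0.28.

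*Ctsd* encodes cathepsin D, an aspartic endopeptidase of general lysosomal breakdown, and it was the most abundant enzyme of young ETP. It had 232 and 154 CPM in old ETP, against 273 and 218 CPM in young ETP. Old replicate 2 was the lowest of the 4 libraries, and old replicate 1 lay between the young ones. The difference was -0.34 (SE 0.32, 95% interval -1.13 to 0.45, edgeR adjusted p = 0.999). *Lgmn*, which encodes the enzyme that cuts after asparagine and activates several cathepsins, had 7.73 and 18.7 CPM in old ETP, against 8.95 and 5.77 CPM in young ETP. Only old replicate 2 stood above the young libraries, so the groups overlapped, and the difference of 0.81 (SE 0.56, edgeR adjusted p = 0.999) was 0.02 without that library.

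*Ifi30* encodes GILT, an interferon-inducible reductase that opens the disulfide bonds of antigen in the endosome. It had 1143 and 1374 fragments in old ETP, or 95 and 299 CPM, against 296 and 139 fragments, or 17.3 and 22.3 CPM, in young ETP. As for *Ctsh*, both old libraries were above both young ones by several fold, with the higher level in old replicate 2. The difference was 3.32 (SE 0.61, 95% interval 1.80 to 4.83, edgeR adjusted p = 0.347), and the DESeq2 adjusted p was 2.69e-06. Leaving out old replicate 2 gave a difference of 2.24.

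The membrane glycoproteins line the inner face of the lysosome and are often used to mark how much lysosome a cell holds. *Lamp1* had 155 and 90.6 CPM in old ETP, against 142 and 121 CPM in young ETP. The old libraries enclosed the young ones, at a difference of -0.10 (SE 0.34, 95% interval -0.95 to 0.75, edgeR adjusted p = 0.999). *Lamp2*, one form of which takes up proteins for chaperone-mediated autophagy, had 96.6 and 214 CPM in old ETP, against 115 and 261 CPM in young ETP. Here the replicates of each age differed 2.21-fold in old ETP and 2.27-fold in young ETP, more than the ages did (-0.28, SE 0.55, 95% interval -1.64 to 1.08, edgeR adjusted p = 0.999). The signs of *Lamp1* and *Lamp2* turned when single libraries were left out, with ranges of -0.50 to 0.21 and -0.98 to 0.43. The intervals allow changes of up to a few fold in either direction for *Lamp2*, so equal levels were not shown.

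**Figure D2:**
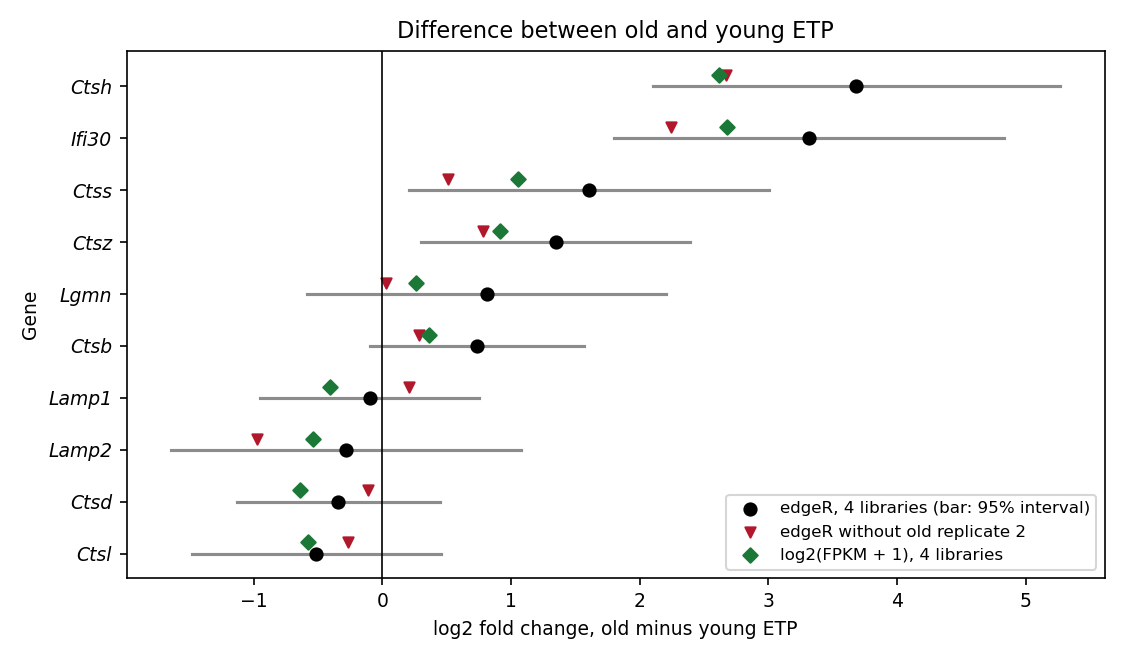
Difference between ages for each of the 10 genes, as log2 of old over young from edgeR with its 95% interval, the estimate without old replicate 2 (triangles) and the difference on log2(FPKM + 1) (diamonds). The intervals of *Ctsh*, *Ifi30*, *Ctss* and *Ctsz* lie above 0 and those of the other 6 genes include it, and without old replicate 2 the estimate is smaller for *Ctsh* (2.67), *Ifi30* (2.24) and *Ctss* (0.51).

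Levels of different genes were compared per length, as the deposited FPKM rescaled to the same sum in each library (TPM). In old ETP the order by mean was *Ifi30* (479 ± 383 TPM), *Ctss* (381 ± 310), *Ctsd* (197 ± 34.8), *Lamp2* (120 ± 71.6), *Ctsh* (109 ± 85.5), *Lamp1* (106 ± 27.8), *Ctsz* (101 ± 53.5), *Ctsb* (78.3 ± 36.9), *Lgmn* (14.8 ± 10.03) and *Ctsl* (10.9 ± 2.19; SD, n = 2). The old ranges of neighbours in this order were separate only between *Ctsd* and *Lamp2* and between *Ctsb* and *Lgmn*. In young ETP the order was *Ctsd* (265 ± 2.24 TPM), *Lamp2* (155 ± 97.6), *Ctss* (127 ± 16.2), *Lamp1* (122 ± 4.88), *Ifi30* (50.04 ± 15.2), *Ctsb* (48.7 ± 9.75), *Ctsz* (40.0 ± 5.14), *Ctsl* (16.9 ± 2.19), *Ctsh* (8.93 ± 3.98) and *Lgmn* (8.27 ± 1.32; SD, n = 2). Young ranges were separate between *Ctsd* and *Lamp2*, *Lamp1* and *Ifi30*, *Ctsz* and *Ctsl*, and *Ctsl* and *Ctsh*. *Ifi30* and *Ctsh* therefore stood higher in the old order, and *Ctsd* lower by its mean, while *Ctsl* and *Lgmn* were among the lowest genes at both ages. *Ctsh* was at place 8 in old replicate 1 and place 5 in old replicate 2, against places 10 and 9 in young replicates 1 and 2. In old replicate 1 alone *Ctsd* was still first (221 TPM, beside 208 for *Ifi30* and 162 for *Ctss*), so its lower place came from old replicate 2. On this scale both old libraries were below both young ones for *Ctsd*, which overlapped in CPM, and *Ctsb* overlapped (52.2 and 104 TPM in old ETP, against 41.8 and 55.6 TPM in young ETP).

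The make-up of the enzymes differed between ages. *Ctsd* made up 28.6% and 8.76% of the summed TPM of the 8 enzymes in old ETP, against 49.6% and 44.5% in young ETP. *Ifi30* made up 26.8% and 38.1% in old ETP, against 7.30% and 10.2% in young ETP. *Ctsh* made up 6.26% and 8.62% in old ETP, against 1.14% and 1.98% in young ETP. For each of these 3 genes both old libraries lay on one side of both young libraries. The share of *Ctss*, in contrast, was 20.9% and 30.5% in old ETP, against 21.5% and 23.4% in young ETP, which overlapped, as did the share of *Ctsz* (8.10% and 7.04% in old ETP, against 8.10% and 6.13% in young ETP). *Ctsb* took 6.73% and 5.31% in old ETP, against 7.77% and 9.38% in young ETP, and *Ctsl* 1.61% and 0.478% in old ETP, against 2.86% and 3.12% in young ETP. *Lgmn* took 0.998% and 1.12% in old ETP, against 1.71% and 1.24% in young ETP, so the old shares of these 3 genes were below the young ones. Shares add to a fixed total, so a higher share of *Ifi30* lowers the others, and a lower share need not mean a lower level. *Ctsb*, for one, was higher in CPM in both old libraries. The summed level of the 8 enzymes was 775 and 1966 TPM in old ETP, against 539 and 593 TPM in young ETP.

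**Figure D3:**
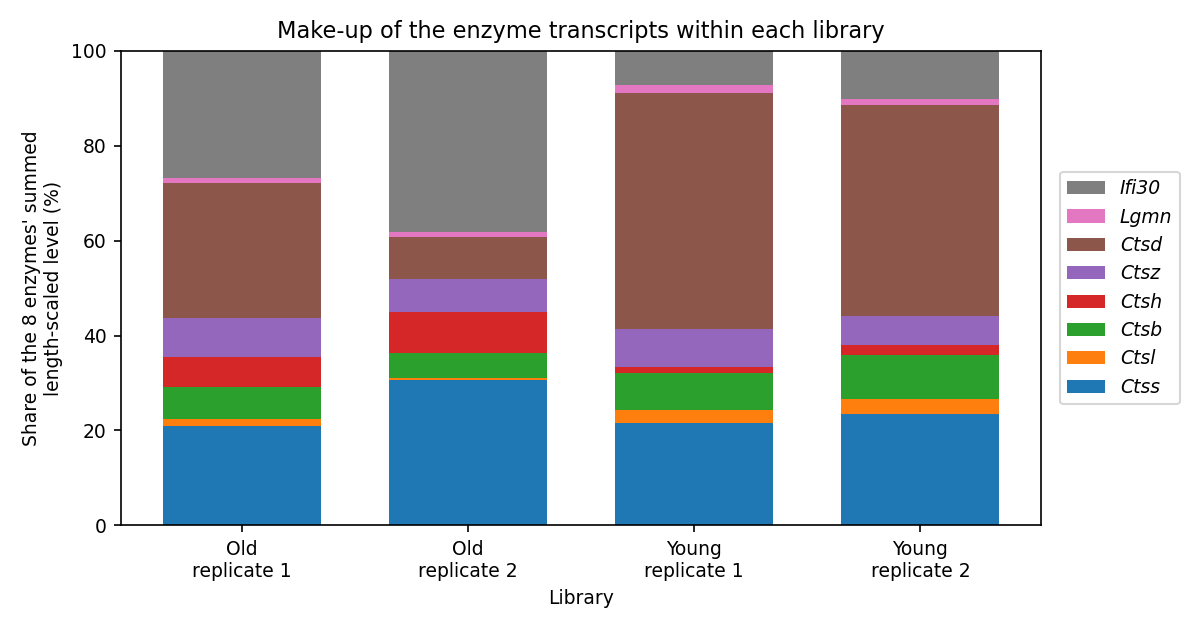
Share of each of the 8 enzymes in their summed TPM, as stacked bars from 0 to 100% for old replicates 1 and 2 and young replicates 1 and 2. *Ctsd* fills 28.6% and 8.76% of the old bars, against 49.6% and 44.5% of the young bars, and *Ifi30* fills 26.8% and 38.1% of the old bars, against 7.30% and 10.2% of the young bars.

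A ratio within one library does not depend on how libraries are scaled, so each enzyme was also set against *Lamp1* as a ratio of FPKM values. The ratio of *Ifi30* to *Lamp1* was 1.66 and 8.68 in old ETP, against 0.332 and 0.485 in young ETP, and that of *Ctsh* was 0.386 and 1.96 in old ETP, against 0.0517 and 0.0938 in young ETP. For *Ctss* it was 1.29 and 6.95 in old ETP, against 0.981 and 1.11 in young ETP. The old ratios were also both higher for *Ctsz* (0.4997 and 1.60 in old ETP, against 0.369 and 0.290 in young ETP) and both lower for *Ctsd* (1.76 and 1.99 in old ETP, against 2.26 and 2.11 in young ETP) and *Ctsl* (0.0993 and 0.109 in old ETP, against 0.130 and 0.148 in young ETP). *Ctsb* and *Lgmn* overlapped. In the exact two-sided permutation test of the log2 ratios, these 6 genes reached p = 0.333, the smallest value that 2 libraries against 2 can give, and *Ctsb* and *Lgmn* gave p = 0.667. The design cannot reach 0.05 in this test. With *Lamp2* as the denominator, *Ctss*, *Ctsz*, *Ctsh* and *Ifi30* were again higher in both old libraries, whereas *Ctsd* (3.18 and 1.008 in old ETP, against 3.10 and 1.18 in young ETP) and *Ctsl* overlapped (exact permutation p = 1), and *Ctsb* and *Lgmn* no longer did (exact permutation p = 0.333).

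The genes whose pattern was most like that of *Ctss* over the 4 libraries, by Euclidean distance between log2 CPM centred on each gene's mean, were *H2-Oa* (0.21), *Cnr2* (0.25), *Scimp* (0.26), *Cd3g* (0.27) and *P2rx7* (0.28). *H2-Oa*, a chain of the class II loading regulator H2-O, had 24.6 and 64.9 CPM in old ETP, against 15.3 and 14.7 CPM in young ETP. All 5 shared with *Ctss* a high value in old replicate 2 and near-equal values in young ETP, which follows from how they were picked. *Cd3g* rested on few fragments, 34 and 37 in old ETP, against 27 and 8 in young ETP. The 4 libraries are too few to tell such patterns apart.

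Other cathepsins and their inhibitors were examined next. Of 6 other cathepsins tested, 4 had a higher and 2 a lower estimate in old ETP, with a median of 0.11, and none passed an unadjusted p of 0.05. *Ctsa*, the carboxypeptidase that protects other lysosomal enzymes, had 137 and 115 CPM in old ETP, against 125 and 121 CPM in young ETP. Of 7 cystatins and serpins, 3 had higher and 4 lower estimates (median -0.31). An unadjusted edgeR p under 0.05 was reached by 1 with a higher and 1 with a lower level in old ETP (4.65% and 0.913% of all tested genes). Both old libraries lay above both young ones for 1 gene and below for 2 (16.1% and 15.5% of all tested genes). *Cst3*, the secreted cysteine protease inhibitor cystatin C, which is abundant in dendritic cells, had 1169 and 2373 CPM in old ETP, against 244 and 234 CPM in young ETP. Its difference of 2.89 had an edgeR adjusted p of 0.325 and a DESeq2 adjusted p of 9.42e-08. This single inhibitor, but not the list as a whole, was thus higher in the same libraries as *Ctss* and *Ctsh*.

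Of 28 other lysosomal hydrolases, 21 had a higher estimate in old ETP (46.6% of all tested genes did), with a median of 0.21 and 7 at an unadjusted edgeR p under 0.05. *Ppt1*, which removes palmitate from proteins, had 558 and 1982 CPM in old ETP, against 167 and 276 CPM in young ETP (edgeR adjusted p = 0.495, DESeq2 adjusted p = 0.00247). Of 11 activators and transport genes, 9 had a higher estimate (median 0.48). *Psap*, the precursor of the saposins, had 795 and 1717 CPM in old ETP, against 230 and 229 CPM in young ETP (edgeR adjusted p = 0.347, DESeq2 adjusted p = 2.44e-05). Of 14 other membrane genes, 11 were higher (median 0.39), led by *Cd68*, a membrane protein used as a macrophage and dendritic cell marker, with 25.3 and 65.8 CPM in old ETP, against 4.97 and 11.5 CPM in young ETP. *Laptm5*, the most abundant of these membrane genes, had 1047 and 1300 CPM in old ETP, against 777 and 755 CPM in young ETP. DESeq2 called higher 2 of these hydrolases, 1 of the activators and transport genes and 1 of the membrane genes (2.08% of all tested genes). It called 0 of the V-ATPase subunits and 0 of the regulators described next.

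The proton pump that acidifies lysosomes and the regulators of lysosomal genes had medians between those of the other hydrolases and of the activators. Of 16 V-ATPase subunits, 14 had a higher estimate (median 0.30), and *Atp6v0a1* had 18 and 21.1 CPM in old ETP, against 8.37 and 11.2 CPM in young ETP. *Atp6v0e*, the most abundant subunit per length, had 53.6 and 81.3 CPM in old ETP, against 39.3 and 32.8 CPM in young ETP. Of 9 regulators, 8 had a higher estimate (median 0.32), and *Tfeb* itself had 6.73 and 10.7 CPM in old ETP, against 3.39 and 3.84 CPM in young ETP, at a difference of 1.26. *Lamtor1*, a lysosomal anchor of mTORC1 signalling, had 56.7 and 43.1 CPM in old ETP, against 53.3 and 32.8 CPM in young ETP. On log2(FPKM + 1) the median of all tested genes was -0.27, so signs were read against that median. Above it lay 4 of 6 other cathepsins, 3 of 7 cystatins and serpins, 23 of 28 hydrolases, 9 of 11 activators and transport genes, 11 of 14 membrane genes, 12 of 16 V-ATPase subunits and 8 of 9 regulators. Against 0, with the shift of all genes left in, 1, 2, 13, 7, 8, 10 and 4 genes of these lists were higher in old ETP. Of the 8 enzymes among the members, 6 lay above 0 and above the median on both scales, and *Lamp1* and *Lamp2* lay below both. All 10 class II genes and 10 of 11 tested dendritic cell markers, described next, lay above the median of all genes on log2(FPKM + 1), and 8 of 12 ETP markers lay below it.

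**Figure D4:**
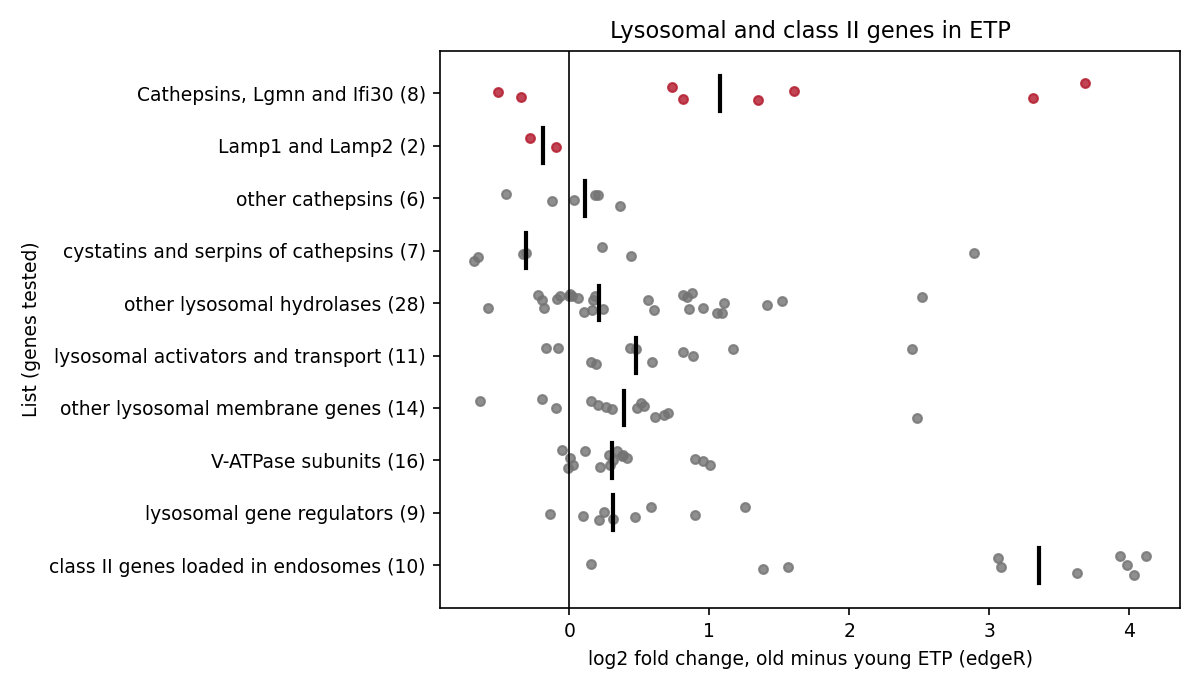
Difference between ages, as log2 of old over young from edgeR, for every tested gene of each list, with the median of each list as a bar. The members spread from -0.51 to 3.68, class II genes have the highest median of these lists at 3.36, and on this scale the medians of V-ATPase subunits and regulators are 0.30 and 0.32.

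The class II genes that work in the same compartment, and markers of conventional dendritic cells, were high in the same libraries as *Ctsh*, *Ifi30* and *Ctss*. All 10 class II genes had a higher estimate in old ETP (median 3.36), 9 at an unadjusted edgeR p under 0.05, and DESeq2 called 7. *Cd74*, the invariant chain that *Ctss* cuts, had 2845 and 9057 CPM in old ETP, against 229 and 522 CPM in young ETP, and *H2-Eb1*, a class II chain, had 772 and 1694 CPM in old ETP, against 61.1 and 80.6 CPM in young ETP. Summed over the 10 genes, class II transcripts had 6162 and 19323 CPM in old ETP, against 813 and 1433 CPM in young ETP. Relative to the young mean and on the log2 scale, the class II sum was 2.46 and 4.10 in old replicates 1 and 2, beside 2.26 and 3.92 for *Ifi30* and 2.67 and 4.26 for *Ctsh*, but only 0.54 and 2.22 for *Ctss*. The step between old replicates was similar for all of these, 3.14-fold for the class II sum and 3.20-fold for *Ctss*.

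Conventional dendritic cell markers were also higher in old ETP: of 14 markers 11 were tested, and 10 had a higher estimate (median 3.10). Of the 11, 9 passed an unadjusted p of 0.05 in edgeR and 8 were called by DESeq2. Their sum was 1655 and 4661 CPM in old ETP, against 682 and 816 CPM in young ETP. Relative to the young mean and on the log2 scale, it was 1.14 and 2.64 in old replicates 1 and 2. That was less than for the class II sum (2.46 and 4.10). *Clec9a*, a receptor of the cross-presenting subset, had 52.6 and 426 CPM in old ETP, against 5.44 and 16.3 CPM in young ETP, and *Naaa*, a lysosomal amidase, had 264 and 677 CPM in old ETP, against 30.9 and 45.2 CPM in young ETP. The lineage antibodies that the study lists for the sort were against IgM, CD3ε, CD8α, NK-1.1, both T cell receptors, Gr-1, CD11b, B220 and TER-119. The sorted cells also had to carry CD117. How fully the sort left out cells of any other type was not tested. The part of dendritic cells, or of the other cells listed next, in the levels of *Ctsh*, *Ifi30*, *Ctss* and *Ctsz* was not tested.

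Of 14 macrophage and monocyte markers 4 were tested, 3 with a higher estimate, with a sum of 309 and 539 CPM in old ETP, against 231 and 251 CPM in young ETP. *C1qa*, which many tissue macrophages express, was at 0 in all 4 libraries, and no other marker of this list was. *Lyz2* had 173 and 142 CPM in old ETP, against 128 and 111 CPM in young ETP, whereas *Ccr2*, a chemokine receptor also of progenitors, had 37.5 and 300 CPM in old ETP, against 12 and 51.6 CPM in young ETP. Of 10 thymic epithelial markers only *Ly75*, which dendritic cells also express, was tested (29.9 and 81.7 CPM in old ETP, against 25.6 and 34.4 CPM in young ETP), and the list summed to 34.5 and 99.1 CPM in old ETP, against 30.9 and 38.1 CPM in young ETP. *Foxn1*, the defining factor of thymic epithelium, was at 0 in every library, as was *Cldn4*, and no other marker of this list was. Of 10 plasmacytoid dendritic cell markers 6 were tested, 4 of them with a higher estimate, and their sum was 248 and 407 CPM in old ETP, against 297 and 448 CPM in young ETP, which overlapped. *Klk1* was at 0 throughout, *Bst2* had 42.3 and 27 CPM in old ETP, against 38.7 and 19.9 CPM in young ETP, and *Irf7*, an interferon-induced factor, had 34.9 and 62.5 CPM in old ETP, against 17.3 and 17 CPM in young ETP. NK and innate lymphoid cell markers summed to 407 and 410 CPM in old ETP, against 263 and 263 CPM in young ETP, and of 7 tested 6 had a higher estimate (median 2.94), 4 at an unadjusted edgeR p under 0.05 and 4 called by DESeq2. *Nkg7*, the most abundant of them per length, was the exception (231 and 158 CPM in old ETP, against 220 and 214 CPM in young ETP). Of 9 B cell markers, only *Cd79b* was tested (23.6 and 24.8 CPM in old ETP, against 30.8 and 22.9 CPM in young ETP), and the list summed to 29.3 and 43.6 CPM in old ETP, against 35.9 and 38.4 CPM in young ETP.

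**Figure D5:**
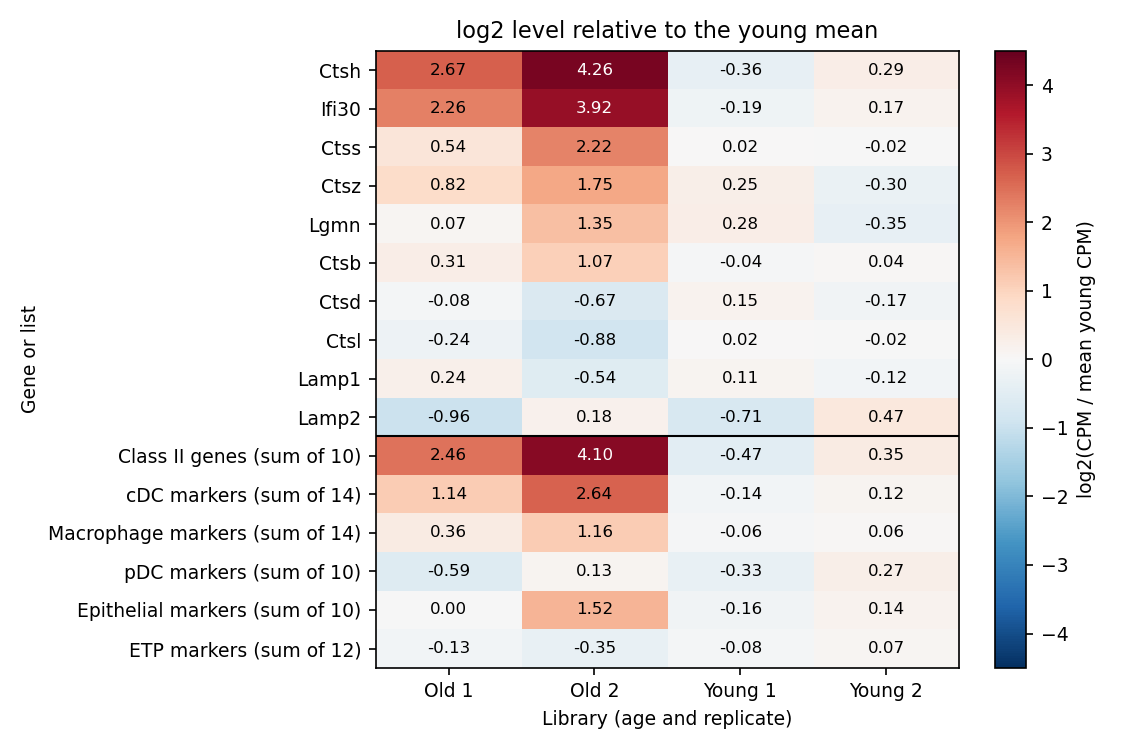
Level of each member, and the summed level of class II genes and of markers of other cells, in each library relative to the mean of the young libraries, as log2 values. The row of *Ctsh* (2.67 and 4.26 in old replicates 1 and 2) and that of *Ifi30* (2.26 and 3.92) sit beside the class II sum (2.46 and 4.10), whereas the ETP marker sum is at -0.13 and -0.35.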

How the data were processed

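Total RNA of sorted ETP was amplified, made into libraries and sequenced paired-end on an Illumina instrument by the authors, who aligned reads with STAR 2.3.0 to GRCm38 (mm10). Per the submitters' processing notes, Cufflinks 2.1.1 and Cuffdiff, HTSeq 0.5.4p3 and DESeq 1.12.1 were also used. The deposited Cuffdiff table gave, for each gene and library, an estimated count of fragments, whole for about 96% of values, and an FPKM value scaled by the authors for gene length and depth. Such counts can divide a fragment between transcripts, so those of overlapping genes are less certain. The authors' own comparison columns hold fold changes and p-values and were not used.

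Groups were taken from the sample labels, and the table's own replicate numbers name the libraries of an age. The table's name for the older group states an age in months that does not match the 72 weeks of the labels, and the labels' age was used. The tested genes reached an FPKM of 1 in 2 or more of the libraries. Estimated counts were rounded and fitted on age in edgeR 4.0.16 (R 4.3.3; TMM, glmQLFit and glmQLFTest, two-sided, Benjamini-Hochberg over all tested genes, threshold 0.05). Standard errors were derived from the F statistic and intervals from the matching t distribution. DESeq2 1.42.0, limma 3.58.1 on log2(FPKM + 1) or log2(FPKM + 0.1), other scaling factors and filters, a replicate term and leaving out each library were alternatives. The fit was tested on simulated data. Sequences came from RefSeq and coordinates from GENCODE M21, both on GRCm38. The methods name no molecular identifiers, so fragments need not be independent molecules and limits from 3 fragments cover counting error only.

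Named beside the 10 members were, from each gene list, the tested gene with the highest mean TPM and that with the largest absolute difference, the 5 genes nearest to *Ctss*, and genes sharing exonic positions. *C1qa*, *Foxn1*, *Cldn4*, *Klk1* and *Kit* were chosen for naming once their values were known. *Il2ra* was named because its protein was part of the sort. The members and the lists were chosen with earlier results of these data known.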

Additional observations from a re-analysis of the deposited data

How the results depend on the processing

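The number of genes called depended on the test. edgeR called 0 genes higher and 0 lower, and DESeq2 called 210 and 15. Without the filter on low values edgeR called 474 and 34 of 17112 genes. With the replicate number as a block edgeR called 578 and 199. Left-out libraries gave 0 to 218 higher and 0 to 3 lower, with the lone library of an age assumed to vary like the other pair. Members called higher were 2 in DESeq2, beside 210 of 10080 tested genes, and 4 without the filter, beside 474 of 17112. With the replicate block they were 5, beside 578 of 10080 genes, and 0 members were called lower in any setting. Same-numbered libraries deviated together (r = 0.73 over 10080 genes, with 2 pairs), but the labels do not say that a number marks a shared animal or batch, so the block was not used. The median of the members was 0.31 with limma on log2(FPKM + 1), against 0.77, but the median of all genes moved as well, and relative to it the members were at 0.58, against 0.81. It was 0.25 to 1.23 with a library left out, and members with no overlap numbered 5 to 6 above and 2 to 3 below. A lone library lies outside the range of a pair more readily than 2 libraries do. The share of all tested genes was not counted for these fits, so their counts cannot be set against those from all 4 libraries. All 10 members kept their sign under the 8 settings that used every library. With a library left out, *Lamp1* ranged from -0.50 to 0.21 and *Lamp2* from -0.98 to 0.43, and the log2 ratio of *Lgmn* to *Lamp1* from -0.13 to 1.91. Among other genes, limma with an offset of 1 or 0.1, where all genes had medians of -0.27 and -0.33, gave signs below 0 for *Ctsa* (-0.24 and -0.26), *Lamtor1* (-0.057 and -0.056) and *Bst2* (-0.025 and -0.022), all above those medians. Left-out libraries gave -0.055 to 0.13 for *Ctsa*, -0.093 to 0.61 for *Lamtor1*, -0.16 to 0.81 for *Bst2*, -1.55 to 0.25 for *Ctso*, -0.42 to 0.064 for *Nkg7*, -0.022 to 1.49 for *Ly75* and -0.35 to 0.080 for *Cd79b*. The cause of the shifts with single libraries was not tested. With 2 libraries an age, the size of each difference is poorly fixed.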

Other observations

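*Lamp2* differed more between library numbers than between ages. Replicate 2 was 2.21 times replicate 1 in old ETP and 2.27 times in young ETP. The old library was the lower of each same-numbered pair, at 96.6 against 115 CPM and 214 against 261 CPM. A difference by age was therefore not excluded. *Ctso*, another papain-like cathepsin, had 21.5 and 70.4 CPM in old ETP, against 38.3 and 86.8 CPM in young ETP, so it too was higher in replicate 2 at both ages. Such shared deviations were not particular to these 2 genes (r = 0.73 between same-numbered libraries over 10080 genes). *Ctsh*, *Ifi30* and *Ctsb* were also higher in replicate 2 at both ages, whereas *Ctsd*, *Ctsl* and *Lamp1* were lower in it. The replicates numbered 2 are the shallower library of each age. Whether depth, preparation or the animals set this order was not tested.

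The natural killer cell marker with the largest difference of its list had a different profile in old ETP from *Ctsh* and *Ifi30*, on 101 and 33 fragments. *Ncr1*, which encodes the receptor NKp46, had 8.40 and 7.19 CPM in old ETP, against 0.0585 and 0.320 CPM in young ETP, which is under the level of 3 fragments in each young library. *Ncr1* was nearly equal in both old libraries, where *Ctsh* and *Ifi30* were higher in old replicate 2.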
